A study of Mus musculus with 18 samples.

Results

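The collagen and laminin genes are described here in the retina of albino BALB/cJ mice after light damage. Members were the gene symbols made of Col, a type number, the letter a and a chain number, or of Lam, a chain letter (a, b or c) and a number, with a mean of 10 or more counts per mouse. Of 23420 symbols in the count tables, 55 had such a name, and 50 of them (39 collagens and 11 laminins) reached the minimum. The study asked how TD139, a small-molecule inhibitor of galectin-3, alters the response of the retina to bright light. The design had 3 groups of 3 mice, each mouse being a separate animal with 2 sequencing runs that were summed here. Naïve mice had no light exposure and no treatment. Vehicle-treated mice received 1 h of white light at 15000 lux and daily intraperitoneal DMSO, and TD139-treated mice received the same light and TD139 at 15 mg/kg in DMSO. All 9 were wild-type young adults of the same line, and the light-exposed retinas were taken at day 4 after exposure. The naïve mice received neither DMSO nor light, so that the comparison of vehicle with naïve holds both differences together.

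Collagens are proteins of 3 alpha chains wound into a triple helix. Fibrillar collagens form banded fibers, fibril-associated collagens decorate them, and type IV collagen forms the sheet-like network of basement membranes. Laminins are cross-shaped trimers of an alpha, a beta and a gamma chain that build the other basement membrane network and bind integrins and dystroglycan on cells. In the eye, basement membranes lie at the inner limiting membrane, around retinal vessels and under the retinal pigment epithelium (RPE), and the lens capsule is an especially thick one that is rich in type IV collagen. Galectin-3 itself is a lectin that binds laminins among other glycoproteins.

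Each mouse had between 26171887 and 30201517 counts on genes, so that 3 counts, the level below which a gene was taken as not measurable, equalled between 0.0993 and 0.115 CPM, the unit that scales counts to the same total in each mouse. Levels are given as CPM after TMM scaling unless raw counts are named, and marker sums are CPM of each mouse's total without that scaling. One vehicle-treated mouse stood apart from the other 8. The 25 lens markers, among them the crystallin Cryaa, summed to 10494 CPM in vehicle-treated mouse 2, against 33.7 and 29.1 CPM in the other vehicle-treated mice, between 171 and 486 CPM in naïve mice and between 14.5 and 335 CPM in TD139-treated mice. All 10 skeletal muscle markers were also highest in that mouse (1079 CPM in sum against 7.3 to 18.7 CPM), and Myh4, a fast muscle myosin, had 5233 counts there and 0 in each of the other 8. The 8 cornea and ciliary body markers summed to 523 CPM in it, to 77.7 CPM in TD139-treated mouse 1 and to between 4.3 and 34.5 CPM in the other 7. Results in which vehicle-treated mouse 2 was far from the others are therefore given with and without it. Since whole retinas were sequenced, fewer cells of a type and less RNA per cell cannot be told apart.

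Several members lie in pairs that share the DNA between their starts, and the 2 type IV pairs shown here did not keep their count ratio in vehicle-treated mouse 2. Col4a1 (chromosome 8, 11198423 to 11312826, minus strand) and Col4a2 (chromosome 8, 11312805 to 11449287, plus strand) run away from each other and overlap by 22 bases of their first exons. Col4a4 (chromosome 1, 82448423 to 82586849, minus strand) and Col4a3 (chromosome 1, 82586921 to 82722059, plus strand) have 71 bases between their starts. The shared stretches are shown on the plus strand of GRCm38, from RefSeq promoter windows, with capitals for a GC box (GGGCGG or its complement, searched on both strands). Of all 32851 promoter windows, 4.09% held a GC box in the first 22 transcribed bases and 20.7% in the 71 bases before the start.
Col4a1 and Col4a2, chr8:11312805-11312826: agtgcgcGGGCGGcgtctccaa
Col4a4 and Col4a3, chr1:82586850-82586920: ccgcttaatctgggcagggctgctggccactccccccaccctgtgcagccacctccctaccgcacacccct

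The upstream stretches of Col7a1 and Col11a1 are shown next because their genes passed the test in a comparison and no annotated exon lies in the window. Each holds the 250 bases before the RefSeq start, 5′ to 3′, both on the plus strand. Capitals mark a GC box (GGGCGG) or a CCAAT box (CCAAT), each searched on both strands, and no marked stretch overlaps another. Of all windows of this length, 32.7% held a GC box and 33.8% a CCAAT box. TAATCC, the core letters bound by the photoreceptor factor CRX, and TATAAA were found in neither window, and they occurred in 6.25% and 12.4% of all windows.
Col7a1, chr9:108953336-108953585: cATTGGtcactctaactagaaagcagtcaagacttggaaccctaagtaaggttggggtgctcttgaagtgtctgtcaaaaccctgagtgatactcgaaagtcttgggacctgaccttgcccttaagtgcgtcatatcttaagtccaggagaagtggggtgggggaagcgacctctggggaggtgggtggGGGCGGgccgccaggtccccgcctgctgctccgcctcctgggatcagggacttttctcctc
Col11a1, chr3:114030290-114030539: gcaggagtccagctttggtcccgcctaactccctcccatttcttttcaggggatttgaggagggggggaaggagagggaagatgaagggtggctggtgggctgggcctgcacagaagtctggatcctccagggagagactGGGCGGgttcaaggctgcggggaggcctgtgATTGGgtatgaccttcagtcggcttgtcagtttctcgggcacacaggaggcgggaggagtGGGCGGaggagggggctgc

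Levels between genes were compared per length, as CPM divided by the transcript length in kilobases. In naïve retina the highest member on this scale was Col6a1, a chain of the beaded microfibrils of type VI collagen, with 32.9 ± 1.60 (SD, n = 3), a level above that of 83.5% of the genes tested. Col23a1, a transmembrane collagen, followed with 25.7 ± 2.96, and its range did not overlap that of Col6a1. Col2a1, the fibril collagen of vitreous and cartilage, had 20.4 ± 6.60 and Col20a1, a fibril-associated collagen, had 20.2 ± 2.71, and the ranges of both overlapped each other and that of Col23a1. Col11a2, a partner of type II fibrils, and Col9a1, which coats them, stood at 14.3 ± 0.677 and 14.1 ± 1.55.

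Col4a2, Col4a1 and Col7a1 came next, and the laminins followed further down. On the same per-length scale Col4a2 and Col4a1, which form the common type IV trimer, had 13.0 ± 0.554 and 12.1 ± 0.845 in naïve retina, and Col7a1, the anchoring fibril collagen, had 11.8 ± 0.957. Among laminins Lamb1 had 5.03 ± 0.275, Lamb2 4.36 ± 0.508, Lamc1 3.33 ± 0.113, Lama5 2.46 ± 0.295, Lama1 1.48 ± 0.133 and Lamc3 0.669 ± 0.230. Col18a1, the basement membrane multiplexin that yields endostatin, had 7.002 ± 2.59, and its relative Col15a1 had 1.13 ± 0.190. Col1a1 and Col3a1, the main collagens of connective tissue, were near the bottom of the 50 with 0.268 ± 0.0616 and 0.175 ± 0.0668, and Col6a3 was last with 0.0464 ± 0.0373. Just inside the count minimum were Col14a1 with a mean of 11.2 counts per mouse and Lamb3 with 13.1, and just outside it were Col28a1 with 9.56 and Col6a6 with 8.33.

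**Figure D1:**
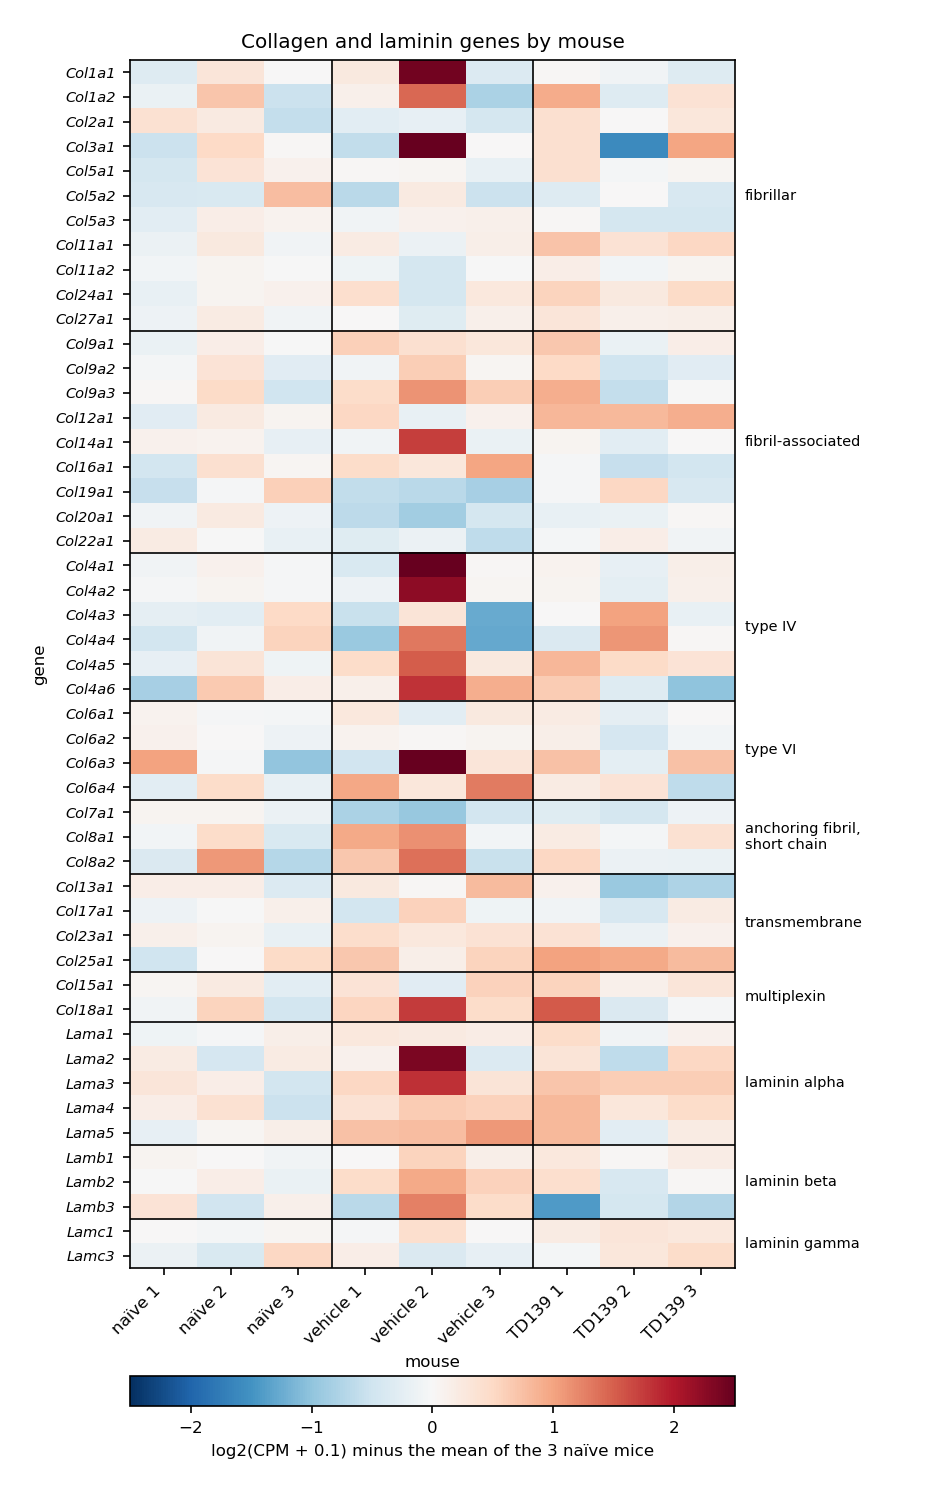
Heat map of 49 of the 50 collagen and laminin genes (rows, grouped by class) in the 9 mice (columns, by group), as log2(CPM + 0.1) minus the mean of the 3 naïve mice, with colors that end at 2.5 in either direction. The column of vehicle-treated mouse 2 holds the darkest red cells, among them Col1a1, Col3a1, Col4a1, Col4a2, Col6a3 and Lama2, while Col7a1 and Col20a1 are pale blue in all 3 vehicle-treated mice and Col12a1 is red in all 3 TD139-treated mice.

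A single mouse held most of the reads of several members. Vehicle-treated mouse 2 held over 40% of the counts of 5 of the 50 genes, Col1a1, Col3a1, Col4a1, Col6a3 and Lama2, and it did so for 1.06% of all 15196 genes tested. It had the highest CPM of the 9 mice in 23 of the 50 (11.2% of all genes tested). The summed CPM of the type IV chains was 1211 in this mouse and between 204 and 299 in the other 8.

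Col4a1 had 1962, 2286 and 2133 counts in naïve, 1704, 18785 and 2422 in vehicle-treated and 2288, 1992 and 2242 in TD139-treated mice. The count of vehicle-treated mouse 2 was more than that of the other 8 mice together, and the other vehicle-treated mice lay around the naïve range. Relative to naïve, the log2 fold change of vehicle was 1.75 ± 0.92 (SE) with all mice (edgeR adjusted p = 0.274) and -0.17 without vehicle-treated mouse 2 (adjusted p = 0.508). Col4a2, its partner chain, had 2134, 2340 and 2237 counts in naïve, 2142, 11292 and 2603 in vehicle-treated and 2370, 2031 and 2320 in TD139-treated mice. Its log2 fold change of vehicle against naïve went from 1.16 ± 0.64 (adjusted p = 0.290) to -0.04 (adjusted p = 0.885) without that mouse. The count ratio of Col4a1 to Col4a2 was 1.66 in vehicle-treated mouse 2 and between 0.796 and 0.981 in the other 8.

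The remaining type IV chains, which form the more specialized networks of kidney, lens and inner ear, were also moved by this mouse. Col4a4 had 250, 333 and 534 counts in naïve, 194, 940 and 162 in vehicle-treated and 280, 830 and 343 in TD139-treated mice. Vehicle-treated mouse 2 and TD139-treated mouse 2 were high, and the other 2 vehicle-treated mice were the lowest of the 9. Its neighbor Col4a3 had 1193, 1174 and 2053 counts in naïve, 1016, 1889 and 663 in vehicle-treated and 1457, 3070 and 1194 in TD139-treated mice, with the highest count in TD139-treated mouse 2. The count ratio of Col4a3 to Col4a4 was 2.01 in vehicle-treated mouse 2 and between 3.48 and 5.24 elsewhere. Col4a4 was higher in TD139 than in vehicle only when vehicle-treated mouse 2 was left out (log2 fold change 1.51, adjusted p = 0.0470, against 0.21, adjusted p = 0.847, with all mice). It was not called without that mouse when counts were corrected for transcript length and GC content. Col4a5 and Col4a6, on chromosome X, were highest in the same mouse with 46.8 and 1.70 CPM, and their log2 fold changes of vehicle against naïve went from 0.84 and 1.12 to 0.34 and 0.53 without it. Col4a3 to Col4a6 were named after their values were seen.

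Col6a3, the long chain of type VI collagen, was the most uneven. It had 23, 10 and 4 counts in naïve, 7, 658 and 15 in vehicle-treated and 19, 9 and 18 in TD139-treated mice, so that 86.2% of its counts came from vehicle-treated mouse 2. Its log2 fold change of vehicle against naïve was 4.09 ± 1.77 (adjusted p = 0.193) and -0.30 (adjusted p = 0.827) without this mouse. The chains it assembles with behaved otherwise. Col6a1 had 142, 132 and 130 CPM in naïve, 163, 113 and 160 CPM in vehicle-treated and 155, 116 and 135 CPM in TD139-treated mice, and Col6a2 stayed between 19.0 and 28.1 CPM in all 9.

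Col1a1 had between 31 and 52 counts in 8 mice and 248 in vehicle-treated mouse 2, and Col3a1 had between 7 and 49 counts and 217. The laminin chain Lama2, typical of muscle basement membrane, had between 24 and 50 counts in 8 mice and 208 in that mouse. With all mice the log2 fold changes of vehicle against naïve were 1.31 ± 0.63 for Col1a1, 1.64 ± 1.02 for Col3a1 and 1.25 ± 0.68 for Lama2, and without vehicle-treated mouse 2 they were -0.05, -0.36 and -0.14. None of the 3 passed the edgeR test in any comparison with all mice. Col1a1 was called lower in TD139 than in vehicle by DESeq2 (-1.46, adjusted p = 0.0431) and by edgeR without vehicle-treated mouse 3 (-1.89, adjusted p = 0.0404). Col14a1 was kept by the minimum only through this mouse, where it had 36 counts against 7 to 9 elsewhere, and it was not tested.

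Col18a1 showed a different set of high mice. It had 35.1, 55.3 and 27.2 CPM in naïve mice, 54.4, 126 and 51.9 CPM in vehicle-treated mice and 108, 29.3 and 36.5 CPM in TD139-treated mice. The highest mouse of each group was the one with the most counts of Optc, which encodes the ciliary body protein opticin: 695 in naïve mouse 2, 2285 in vehicle-treated mouse 2 and 1723 in TD139-treated mouse 1, against 35 to 137 in the other 6. Col18a1 did not pass the test in any comparison. Col8a2, a short-chain collagen of Descemet's membrane, was highest in vehicle-treated mouse 2 (18.9 CPM) and naïve mouse 2 (15.3 CPM), against 4.36 to 11.5 CPM in the others. Between vehicle and naïve the log2 fold change was 0.98 for Col18a1 and 0.49 for Col8a2, and 0.44 and -0.03 without vehicle-treated mouse 2. The part of ciliary body RNA in the Col18a1 levels was not tested.

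**Figure D2:**
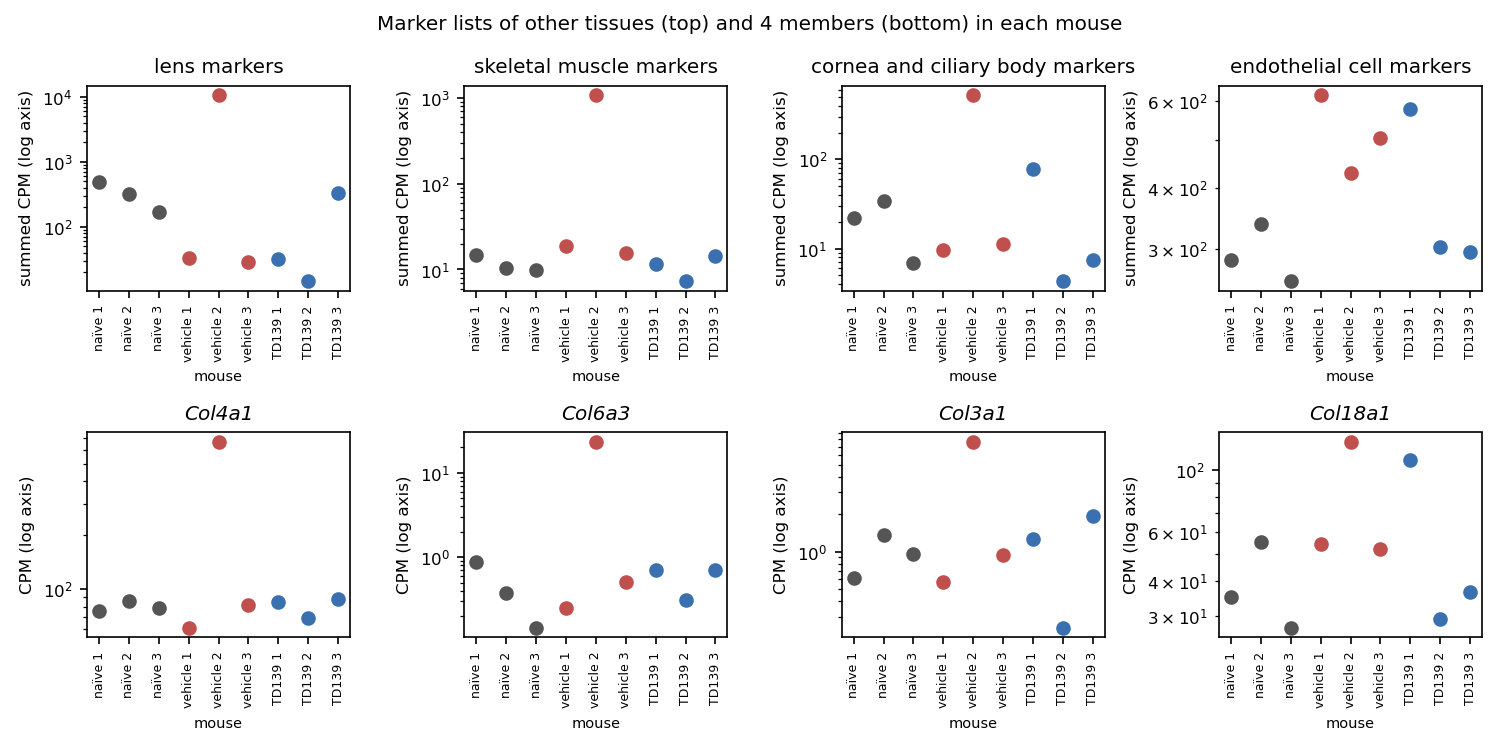
Summed CPM of 4 marker lists (top row) and CPM of 4 members (bottom row) in each of the 9 mice, on log axes, with naïve mice in grey, vehicle-treated in red and TD139-treated in blue. Vehicle-treated mouse 2 is the highest point for lens, muscle and cornea and ciliary body markers and for Col4a1, Col6a3 and Col3a1, and Col18a1 is high in TD139-treated mouse 1 as well, where the cornea and ciliary body markers reached 77.7 CPM.

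Vehicle-treated light-damaged retinas were compared with naïve retinas first. No member was higher at an adjusted p under 0.05, where 4.91% of all genes tested were, and 2 of the 49 tested, Col7a1 and Col20a1, were lower, where 2.89% of all genes were. Without the adjustment, 13 of 49 members had a p under 0.05, against 27.6% of all genes. DESeq2 called 4 members higher, Lama5, Lamb2 and Col4a5 among them, where it called 8.92% of all genes, and 3 lower (Col7a1, Col20a1 and Col19a1), where it called 7% of all genes. The median log2 fold change of the 49 was 0.35 with all mice, against -0.00 over all genes, and 0.06 without vehicle-treated mouse 2. In the same step the number above 0 went from 38 to 26 of 49. No member met an absolute log2 fold change of 2 together with the threshold, which 1.24% of all genes did in the upward and 0.00658% in the downward direction. Without vehicle-treated mouse 2 the same 2 members were lower and none higher, where 2.3% of all genes were lower and 4.05% higher. With counts corrected for transcript length and GC content, again the same 2 were lower and none higher, where 6.2% of all genes were lower and 7.78% higher.

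Col7a1 (chromosome 9, 108953586 to 108984875) had 114, 114 and 98.6 CPM in naïve mice, 62.5, 56.6 and 79.4 CPM in vehicle-treated mice and 88.2, 79.8 and 99.4 CPM in TD139-treated mice. Every vehicle-treated mouse was below every naïve mouse and every TD139-treated mouse. Its log2 fold change of vehicle against naïve was -0.72 ± 0.13 (adjusted p = 0.0192) and -0.62 without vehicle-treated mouse 2 (adjusted p = 0.0341). The call was lost without naïve mouse 1 (adjusted p = 0.0568), naïve mouse 2 (0.0788) or vehicle-treated mouse 1 (0.0641), with log2 fold changes between -0.87 and -0.62 over the fits that left out 1 mouse.

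Col20a1 (chromosome 2, 180986535 to 181018363) had 94.9, 117 and 91.7 CPM in naïve, 63.8, 54.9 and 74.1 CPM in vehicle-treated and 88.0, 89.7 and 102 CPM in TD139-treated mice. The vehicle-treated mice again lay below all 6 others. The log2 fold change of vehicle against naïve was -0.65 ± 0.13 (adjusted p = 0.0224), and -0.55 without vehicle-treated mouse 2 (adjusted p = 0.0407). Leaving out naïve mouse 1, naïve mouse 2 or vehicle-treated mouse 1 ended the call (adjusted p = 0.0562, 0.0882 and 0.0698). The summed CPM of 10 rod photoreceptor markers ran in the same order, between 76454 and 86858 in naïve, 48849 and 64515 in vehicle-treated and 66133 and 75922 in TD139-treated mice, and its part in the levels of these 2 genes was not tested.

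By class, the type IV chains had the highest median log2 fold change of vehicle against naïve, 0.98 over 6 genes, which became -0.10 without vehicle-treated mouse 2. The 4 type VI chains went from 0.52 to 0.16 and the 11 fibrillar collagens from 0.04 to -0.06. The 4 transmembrane collagens stood at 0.37 and 0.46 in the same order, and Col23a1 among them had 196, 174 and 187 CPM in vehicle-treated mice against 159, 151 and 127 CPM in naïve mice, with a log2 fold change of 0.35 ± 0.13 (adjusted p = 0.113). The 8 fibril-associated collagens tested had a median of 0.18 with all mice and 0.14 without vehicle-treated mouse 2, and Col9a1 had 82.0, 71.1 and 65.9 CPM against 48.4, 60.3 and 53.8 CPM in naïve mice (0.43 ± 0.19, adjusted p = 0.168). The CPM ranges of the last 2 genes did not overlap between the groups.

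Laminins leaned upward in vehicle as a group, with 10 of 11 chains above 0 and a median of 0.59, and 7 of 11 with a median of 0.22 without vehicle-treated mouse 2. In 5 of them, with Lama1, Lama3, Lama5 and Lamb2 among these, the lowest vehicle-treated mouse exceeded the highest naïve mouse, and in no collagen beyond Col9a1 and Col23a1; over all genes tested the groups separated this way for 16.7% and the opposite way for 16.6%. Lama5, an alpha chain of vascular and epithelial basement membranes, had 24.2, 28.9 and 30.8 CPM in naïve, 46.1, 47.5 and 58.8 CPM in vehicle-treated and 48.9, 23.2 and 32.2 CPM in TD139-treated mice. Its log2 fold change of vehicle against naïve was 0.86 ± 0.23 (adjusted p = 0.0515), and 0.91 without vehicle-treated mouse 2 (adjusted p = 0.0711). Lama5 missed the threshold in this fit and passed it without TD139-treated mouse 1 or TD139-treated mouse 2, and in DESeq2 and limma. It also passed with RLE scaling, with only the groups compared, in run 2, and with vehicle-treated mouse 2 and TD139-treated mouse 1 left out.

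Lamb2 (chromosome 9, 108479736 to 108490530), a beta chain found at photoreceptor synapses and the inner limiting membrane, had 24.3, 27.5 and 21.8 CPM in naïve mice, 33.5, 47.0 and 36.7 CPM in vehicle-treated mice and 32.6, 18.5 and 24.9 CPM in TD139-treated mice. Vehicle-treated mouse 2 was the highest, and the other vehicle-treated mice were still above all naïve mice. The log2 fold change of vehicle against naïve was 0.67 ± 0.20 (adjusted p = 0.0616), and 0.51 without vehicle-treated mouse 2 (adjusted p = 0.149). It passed the threshold without TD139-treated mouse 1 or 2, with only the groups compared, in run 1, with the lens level as a covariate, and in DESeq2 and limma. Lamb1 and Lamc1, the widespread partner chains, had log2 fold changes of 0.25 ± 0.14 and 0.14 ± 0.13, and of 0.08 and -0.01 without vehicle-treated mouse 2, in which both were highest. They ran between 27.4 and 42.6 CPM and between 24.4 and 33.8 CPM over all 9 mice. Lama3 was named after its values were seen.

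Sums of several cell type markers lay higher after light and vehicle than in the naïve group. Vehicle-treated mouse 2, the highest for Lamb2, Lamb1 and Lamc1, was the lowest of its group for 4 of the sums given here. The 10 endothelial markers summed to between 258 and 337 CPM in naïve mice, to 617, 429 and 504.4 CPM in vehicle-treated mice and to 580, 303 and 296 CPM in TD139-treated mice. The 10 Müller glia markers summed to between 4505 and 4971 CPM in naïve, 6330 and 7177 CPM in vehicle-treated and 4815 and 6325 CPM in TD139-treated mice, again with TD139-treated mouse 1 the highest of its group. The 6 astrocyte markers summed to 123, 170 and 147 CPM in naïve, 400.1, 282 and 568 CPM in vehicle-treated and 224, 147 and 131 CPM in TD139-treated mice. The 10 RPE markers summed to 202, 281 and 129 CPM in naïve, 315, 514 and 252 CPM in vehicle-treated and 214, 136 and 138 CPM in TD139-treated mice, with vehicle-treated mouse 2 the highest. The microglia list gave between 61.5 and 64.6 CPM in naïve mice, 353, 261 and 496 CPM in vehicle-treated mice and 162, 52.4 and 43.5 CPM in TD139-treated mice. The pericyte and smooth muscle list was not higher in vehicle. It gave 1375, 1229 and 991 CPM in naïve, 965, 1116 and 781 CPM in vehicle-treated and 1034, 1007.5 and 1065 CPM in TD139-treated mice, and was mostly Vtn. All vehicle-treated mice lay above every naïve mouse for 5 of 10 endothelial, 7 of 10 Müller glia, 3 of 6 astrocyte, 1 of 10 RPE, 10 of 10 microglia and 3 of 10 pericyte and smooth muscle genes. The endothelial sum was mostly Kdr, a VEGF receptor, with 174, 208 and 135 CPM in naïve and 448, 280 and 321 CPM in vehicle-treated mice, while Pecam1, an endothelial adhesion molecule, had 8.997 to 10.1 CPM and 9.11 to 11.9 CPM. The part of these cell types in the laminin levels was not tested.

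**Figure D3:**
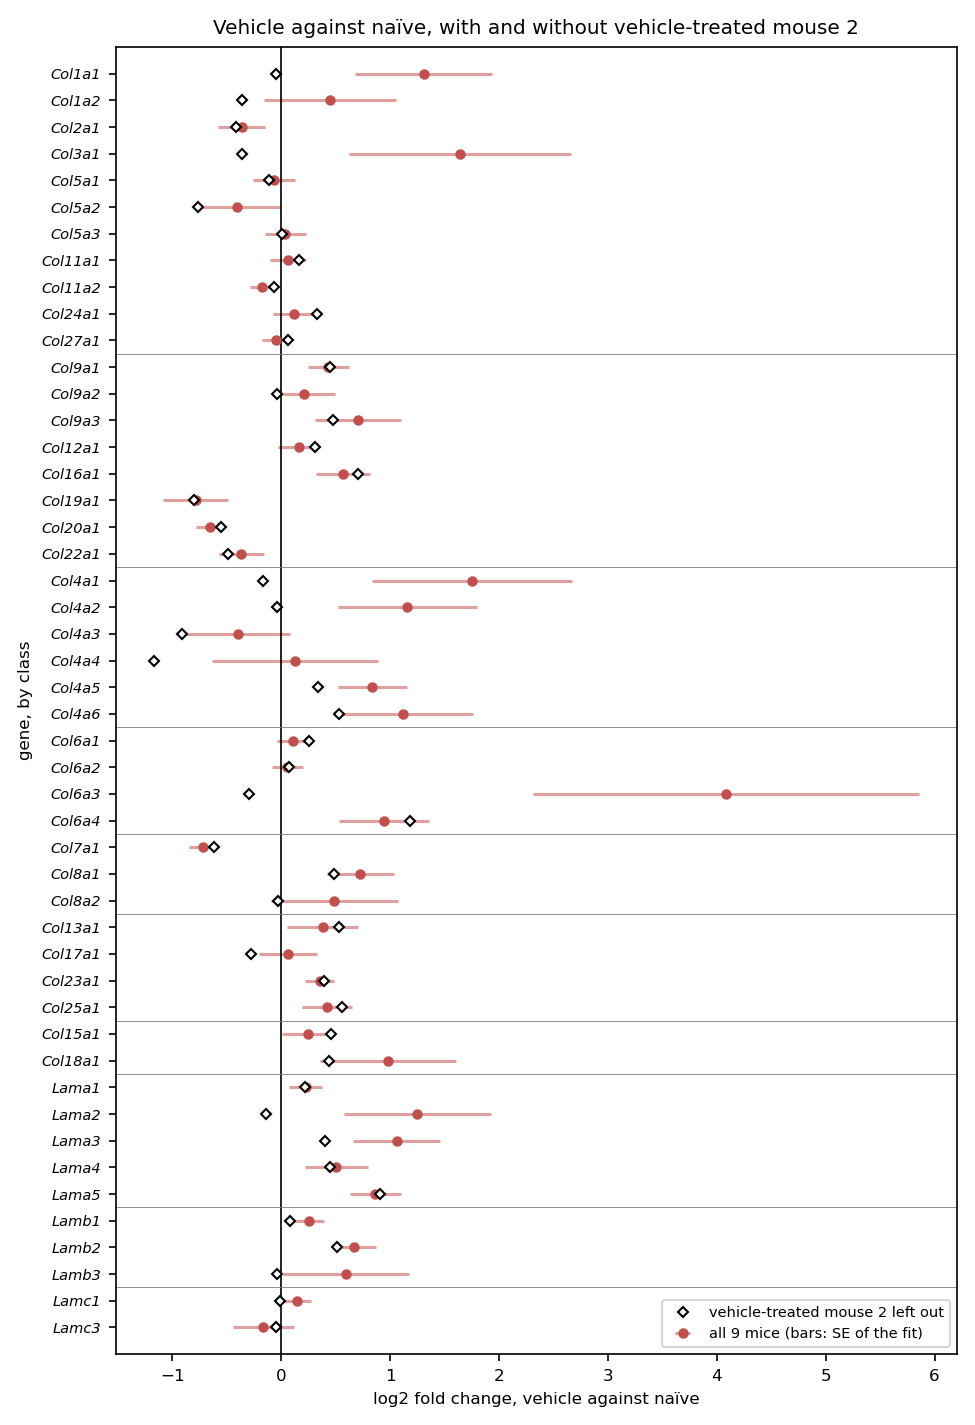
Log2 fold change of vehicle against naïve for 48 of the 49 tested genes, grouped by class, with all 9 mice (red, bars show the SE of the fit) and with vehicle-treated mouse 2 left out (open diamonds). Col4a1, Col4a2, Col6a3, Col1a1, Col3a1 and Lama2 fall to 0 or below when the mouse is left out, and Col7a1, Col20a1 and Lama5 move little.

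TD139 was then compared with vehicle in light-exposed mice. This comparison shares its vehicle-treated mice with the previous one, so that a high or low vehicle group enters both with opposite sign. Of the 49 members, 4 were higher (Col7a1, Col20a1, Col11a1 and Col12a1), where 17.2% of all genes were, and 2 were lower (Col16a1 and Lamb2), where 16.2% of all genes were. The median over the members was -0.15, against -0.02 over all genes, and 0.12 without vehicle-treated mouse 2. With counts corrected for length and GC content it was -0.31, and -0.095 without that mouse, against 0.01 over all genes in both fits, so that it stayed under 0. Without that mouse, 2 members were higher (Col20a1 and Col4a4), where 12.5% of all genes were, and 1 was lower (Col16a1), where 12% of all genes were. The groups did not overlap for 8 members higher and 3 lower with TD139, against 26.0% and 25.4% of all genes. No member reached an absolute log2 fold change of 2 with an adjusted p under 0.05, and 1.53% of all genes did so in the downward direction.

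Col20a1 differed by 0.54 ± 0.13 on the log2 scale between TD139 and vehicle (adjusted p = 0.0122), and by 0.44 without vehicle-treated mouse 2 (adjusted p = 0.0405). The call ended without TD139-treated mouse 3 (adjusted p = 0.0600). Col7a1 differed by 0.43 ± 0.13 (adjusted p = 0.0300), and missed the threshold without vehicle-treated mouse 1, vehicle-treated mouse 2, TD139-treated mouse 2 or TD139-treated mouse 3, with adjusted p up to 0.127, or with counts corrected for length and GC content (log2 fold change 0.14, adjusted p = 0.528). Against naïve mice, TD139-treated mice had log2 fold changes of -0.12 ± 0.13 for Col20a1 and -0.29 ± 0.13 for Col7a1, and neither passed the test (adjusted p = 0.582 and 0.172).

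Col12a1 (chromosome 9, 79598991 to 79718831, minus strand), a fibril-associated collagen of stretched tissues, had 9.76, 14.1 and 12.5 CPM in naïve mice, 17.1, 10.5 and 13.0 CPM in vehicle-treated mice and 21.5, 20.98 and 22.4 CPM in TD139-treated mice. All 3 TD139-treated mice were above the other 6. The log2 fold change was 0.68 ± 0.19 against vehicle (adjusted p = 0.0195) and 0.84 ± 0.19 against naïve (adjusted p = 0.0431). The call against vehicle was lost without vehicle-treated mouse 2, vehicle-treated mouse 3, TD139-treated mouse 2 or TD139-treated mouse 3 (adjusted p up to 0.0715). The call against naïve was lost without naïve mouse 1, naïve mouse 2, vehicle-treated mouse 2, TD139-treated mouse 2 or TD139-treated mouse 3 (adjusted p up to 0.163), 5 fits in which no gene of any kind was called in this comparison. Over these and the other fits that left out 1 mouse, the log2 fold change against naïve lay between 0.72 and 0.97, and at 0.84 without vehicle-treated mouse 2. Corrected for transcript length and GC content, neither call stood, with log2 fold changes of 0.13 against vehicle (adjusted p = 0.589) and 0.39 against naïve (adjusted p = 0.292).

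Col11a1 (chromosome 3, 114030540 to 114220718), a minor fibrillar chain that sets fibril width, had 8.68, 11.5 and 9.13 CPM in naïve mice, 11.1, 8.76 and 10.7 CPM in vehicle-treated mice and 15.9, 12.5 and 13.9 CPM in TD139-treated mice. Its call against vehicle was close to the threshold (0.47 ± 0.17, adjusted p = 0.0493) and stood in 1 of the 9 fits that left out a mouse, the one without naïve mouse 1, with adjusted p up to 0.148 in the others, and was lost with the length and GC correction (log2 fold change 0.04, adjusted p = 0.875). Its counts lay between 226 and 429 per mouse.

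Col16a1 (chromosome 4, 130047840 to 130099283), a fibril-associated collagen of several connective tissues, had 7.53, 13.8 and 10.7 CPM in naïve, 14.3, 12.6 and 20.5 CPM in vehicle-treated and 10.2, 6.96 and 7.55 CPM in TD139-treated mice. The TD139-treated mice were below all 3 vehicle-treated mice and overlapped the naïve range. The log2 fold change of TD139 against vehicle was -0.94 ± 0.25 (adjusted p = 0.0173) and -1.08 without vehicle-treated mouse 2 (adjusted p = 0.0217). The call was lost without vehicle-treated mouse 3, TD139-treated mouse 2 or TD139-treated mouse 3, with adjusted p up to 0.0813.

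Lamb2 fell by 0.62 on the log2 scale in TD139 against vehicle (SE 0.20, adjusted p = 0.0330). Vehicle-treated mouse 2 was part of this call, since the log2 fold change was -0.47 without it (adjusted p = 0.112), and the call was also lost without vehicle-treated mouse 3, TD139-treated mouse 2 or TD139-treated mouse 3. Lama5 had a log2 fold change of -0.55 ± 0.23 (adjusted p = 0.0909). The laminin chains as a group had 3 of 11 above 0 and a median of -0.42, which became 6 of 11 and 0.06 without vehicle-treated mouse 2. The type IV chains went from a median of -0.73 to 0.20 in the same step. With counts corrected for length and GC content the 2 medians were lower, -0.73 and -0.22 for laminins and -0.97 and -0.01 for type IV chains.

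**Figure D4:**
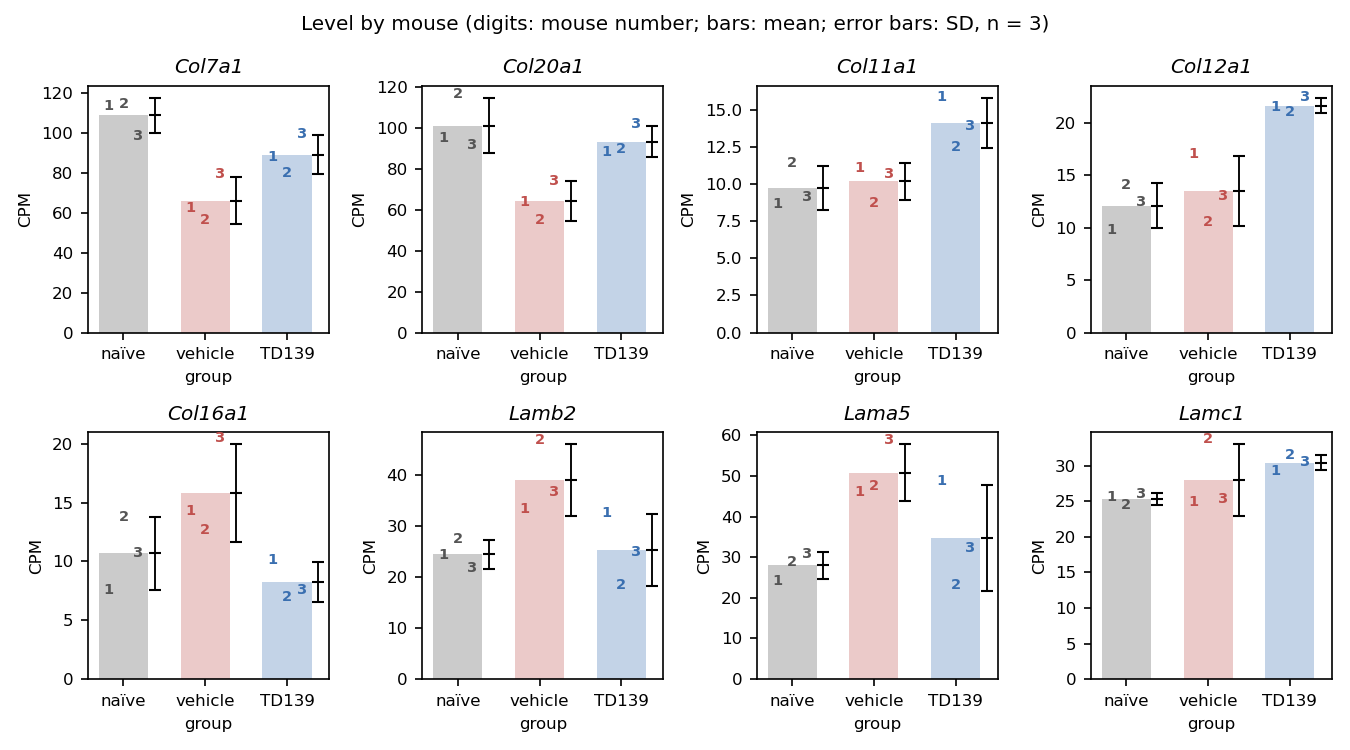
CPM of 8 members in the 3 groups, with bars for the mean, error bars for the SD (n = 3) and digits for the mouse number. Col7a1 and Col20a1 are lowest in vehicle, Col11a1 and Col12a1 highest in TD139, and Col16a1, Lamb2 and Lama5 highest on average in vehicle, while Lamc1 runs between 24.4 and 33.8 CPM.

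Transcript length ran with the fold changes in the TD139 comparisons, less so over the members than over all genes. The tested members had a median transcript of 6046 bases, longer than that of 86.6% of all genes, against 3143.5 bases over all genes. Across genes, which are not independent replicates, Spearman's rho between length and the log2 fold change of TD139 against naïve was 0.61 over 15034 genes and 0.38 over the 49 members. For TD139 against vehicle it was 0.50 over all genes and 0.18 over the members, and 0.46 and 0.38 without vehicle-treated mouse 2. With the counts corrected for length and GC content by a spline in each mouse, the values were -0.03 and -0.05 against naïve and -0.05 and -0.03 against vehicle. The share of counts outside annotated genes also differed by group, with 21.3%, 22.8% and 22.6% in TD139-treated mice against 16.5% to 19.9% in the other 6, and its part in the length trend was not tested. Under the length and GC correction Col20a1 was still higher in TD139 than in vehicle (0.46, adjusted p = 0.0239), and Col16a1 (-1.003, adjusted p = 0.0225), Lamb2 (-0.73, adjusted p = 0.0411) and Lama5 (-0.89, adjusted p = 0.0467) were lower. Col12a1, Col7a1 and Col11a1 were no longer called. In the corrected fit 9.44% of all genes were higher and 9.57% lower. With the correction and vehicle-treated mouse 2 left out, 0 members were higher, where 7.03% of all genes were. In that fit 2 were lower, Col16a1 among them, where 7.4% of all genes were, and Col20a1, Lamb2 and Lama5 were not called. With the correction and the replicate number as a block, Col20a1 and Col16a1 were called, and Lamb2 and Lama5 were not.

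Compared with naïve retina, TD139-treated retina differed in 1 member. Col12a1 was higher, where 2.72% of all genes were, and no member was lower, where 2.38% of all genes were. Without the adjustment, 4 of 49 members had a p under 0.05, against 29.6% of all genes, and DESeq2 called 3 higher and none lower, where it called 9.52% and 7.8% of all genes. None reached an absolute log2 fold change of 2 with the threshold, where 0.0197% of all genes were higher and 0.00658% lower. With the length and GC correction no gene of the 15196 tested was called in this comparison, Col12a1 included. Col25a1, a transmembrane collagen of neurons, had 6.11, 8.78 and 12.1 CPM in naïve mice, 13.8, 9.61 and 12.7 CPM in vehicle-treated mice and 17.5, 16.7 and 15.1 CPM in TD139-treated mice. Its TD139-treated mice were above all naïve mice, and it had a log2 fold change of 0.87 ± 0.23 (adjusted p = 0.0517). In all, 7 of the 49 members did not overlap upward and none downward, against 15.3% and 16.8% of all genes.

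**Figure D5:**
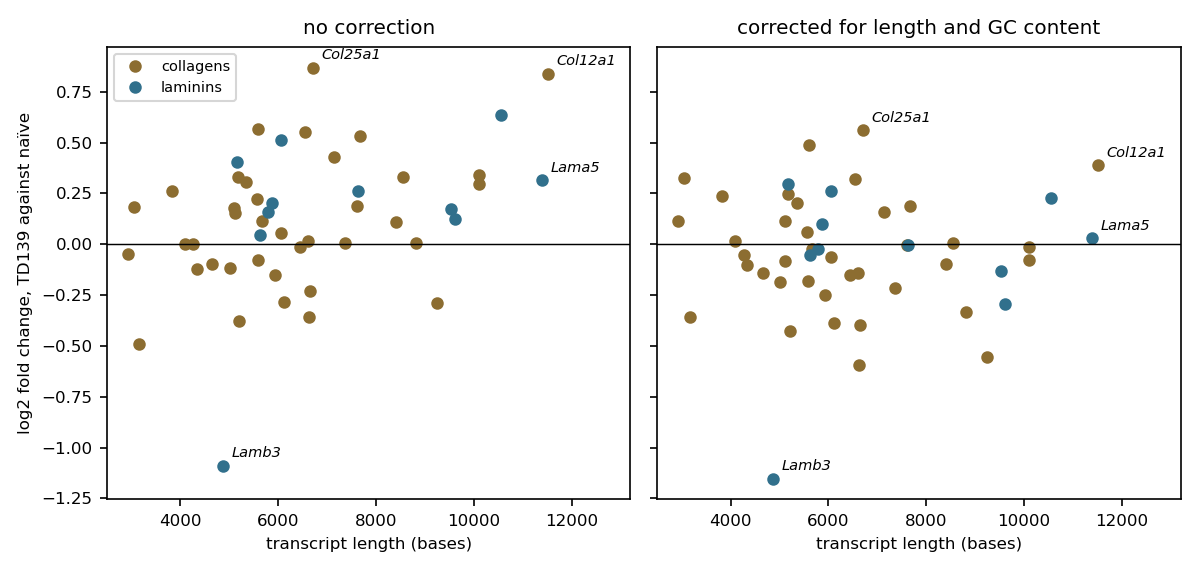
Log2 fold change of TD139 against naïve for the 49 tested members (collagens brown, laminins blue) against transcript length in bases, without correction (left) and with length and GC content corrected for (right). Spearman's rho over the members is 0.38 on the left and -0.05 on the right, and Col12a1, the longest, moves from 0.84 to 0.39.

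The enzymes, receptors and matrix partners of these chains were counted in 4 lists, of which 79 genes were tested. In vehicle against naïve, 11 of the 79 were higher and none lower, beside 4.91% and 2.89% of all genes, and 8 were higher without vehicle-treated mouse 2, beside 4.05% of all genes. In TD139 against vehicle, 4 were higher and 20 lower, beside 17.2% and 16.2% of all genes. Without that mouse the numbers were 3 and 11, beside 12.5% and 12% of all genes. In TD139 against naïve, 3 were higher, beside 2.72% of all genes, and without vehicle-treated mouse 2 no gene of any kind was called. The median log2 fold changes of the partner genes were 0.49, -0.28 and 0.15, and 0.26, 0.07 and 0.15 without vehicle-treated mouse 2, against -0.00, -0.02 and -0.00 over all genes with all mice.

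Among the 23 collagen processing genes, 5 rose in vehicle against naïve, beside 4.91% of all genes, and 1 was higher and 9 were lower in TD139 against vehicle, beside 17.2% and 16.2%. Without vehicle-treated mouse 2, 3 rose in the first comparison, beside 4.05% of all genes, and 1 was higher and 3 were lower in the second, beside 12.5% and 12%. With the length and GC correction 8 rose in the first, beside 7.78% of all genes, and 3 were lower in the second, beside 9.57%. Bmp1, which cuts the C-terminal propeptide of fibrillar collagens, had 23.5, 29.0 and 28.5 CPM in naïve mice, 56.2, 55.1 and 80.3 CPM in vehicle-treated mice and 31.7, 19.2 and 25.2 CPM in TD139-treated mice. The vehicle-treated mice lay above the other 6. The log2 fold change was 1.24 ± 0.20 in vehicle against naïve (adjusted p = 0.0142), which was lost without naïve mouse 1 or naïve mouse 2, and -1.33 ± 0.20 in TD139 against vehicle (adjusted p = 0.00500), which passed in all 9 fits that left out 1 mouse. Loxl1, a cross-linking oxidase, and Serpinh1, the collagen chaperone HSP47, rose by 1.26 ± 0.32 and 0.95 ± 0.25 on the log2 scale (adjusted p = 0.0423 and 0.0431), were highest in vehicle-treated mouse 2 and did not pass without it (adjusted p = 0.0812 and 0.0930) or without any other naïve or vehicle-treated mouse or TD139-treated mouse 3, and 2 of the 9 fits that left out 1 mouse called them. Pcolce, an enhancer of Bmp1, fell by 1.77 in TD139 against vehicle (SE 0.51, adjusted p = 0.0315) and did not pass without vehicle-treated mouse 2 (adjusted p = 0.0682), with 3 of the 9 fits that left out 1 mouse calling it. Adamts3 was the 1 gene of this list higher in TD139 than in vehicle (0.81 ± 0.14, adjusted p = 0.00568). It passed in all 9 fits that left out 1 mouse and with the length and GC correction (0.71, adjusted p = 0.0120).

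Of the 17 receptors tested, 4 rose in vehicle against naïve, and 1 rose and 7 fell in TD139 against vehicle, where 4.91%, 17.2% and 16.2% of all genes did. Without vehicle-treated mouse 2 these numbers were 4, 1 and 5, beside 4.05%, 12.5% and 12% of all genes. Cd44, a cell surface receptor of hyaluronan and matrix on reactive glia and leukocytes, had 19.7, 20.01 and 26.8 CPM in naïve, 75.5, 49.8 and 132 CPM in vehicle-treated and 37.9, 25.2 and 25.7 CPM in TD139-treated mice. Its log2 fold changes were 1.95 ± 0.35 against naïve (adjusted p = 0.0235) and -1.54 ± 0.34 in TD139 against vehicle (adjusted p = 0.0131). Both passed without vehicle-treated mouse 2 (adjusted p = 0.0158 and 0.0135); the first was lost without any 1 naïve mouse or vehicle-treated mouse 1, and the second without TD139-treated mouse 2 or 3. Ddr1, a collagen-activated receptor kinase, and Itgb1, the common beta chain of collagen and laminin integrins, rose by 0.92 ± 0.19 and 0.57 ± 0.11 on the log2 scale (adjusted p = 0.0235 and 0.0192), calls that stood in 4 and 6 of the 9 fits that left out 1 mouse, the one without vehicle-treated mouse 2 included. In TD139 against vehicle, Itgb4, the beta chain of hemidesmosomes, fell by 1.26 (SE 0.40, adjusted p = 0.0340) and by 1.34 without vehicle-treated mouse 2, the lowest of its group, where it did not pass (adjusted p = 0.0530). Itga1, a collagen integrin chain, was higher in TD139 by 1.28 ± 0.40 (adjusted p = 0.0311), at 1.11 ± 0.237 CPM against 0.456 ± 0.149 CPM, and was not called with the length and GC correction (0.57, adjusted p = 0.308). Itgb4 and Itga1 were called in 4 and 5 of the 9 fits that left out 1 mouse.

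Of 19 basement membrane partners, Ntn4, a laminin-binding netrin, rose in vehicle against naïve (0.76 ± 0.17, adjusted p = 0.0286, and 0.68 with adjusted p = 0.0613 without vehicle-treated mouse 2), and its call was lost without any 1 of the naïve or vehicle-treated mice. In TD139 against vehicle, Sparc, a collagen-binding matricellular protein, fell by 1.24 (SE 0.29, adjusted p = 0.0142), a call lost without TD139-treated mouse 3, and by 0.93 without vehicle-treated mouse 2 (adjusted p = 0.0294), where it was highest. Fras1, a protein of embryonic basement membranes, was higher by 0.50 ± 0.15 (adjusted p = 0.0254), a call lost without vehicle-treated mouse 2 (adjusted p = 0.0756) or 3 or TD139-treated mouse 2 or 3. With the length and GC correction Fras1 turned to -0.07 (adjusted p = 0.755). Of 20 fibrillar partners, Thbs1, a matricellular activator of TGF-beta, had 7.72, 10.7 and 6.52 CPM in naïve mice, 34.4, 29.99 and 25.5 CPM in vehicle-treated mice and 14.5, 10.1 and 11.8 CPM in TD139-treated mice. The vehicle-treated mice were above the other 6. The log2 fold change was 1.85 ± 0.21 in vehicle against naïve (adjusted p = 0.0127) and -1.30 ± 0.20 in TD139 against vehicle (adjusted p = 0.00526), and both passed in all 9 fits that left out 1 mouse.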

How the data were processed

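Retinal mRNA of 9 BALB/cJ mice (3 naïve, 3 vehicle-treated and 3 TD139-treated) was sequenced as stranded single-end libraries, with 2 flow cell runs per mouse. The authors quantified reads with BaseSpace RNA Express and deposited raw counts per gene symbol. The submitters' processing notes give the build mm10. The aligner version, the annotation and the strand setting of the counting are not given in the sources used here, so reads of overlapping and antisense genes may not be separable. The share of counts with no feature was 21.3% to 22.8% in TD139-treated mice and 16.5% to 19.9% in the others, and between 0.303% and 0.471% of counts were ambiguous. These rows were left out of totals and tests.

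The 2 runs of a mouse were summed, since they differed far less from each other (chi-square per degree of freedom 1.63 to 1.81) than mice of a group did (17.4 to 76.3). All genes that passed edgeR's expression filter (15196) were fitted in 1 model of 3 groups in R 4.3.3 with edgeR 4.0.16 (TMM scaling, quasi-likelihood test with a robust fit), and p-values were adjusted over all of them by Benjamini-Hochberg, with a call at an adjusted p under 0.05. All adjusted p-values are from this test unless another tool is named. With 3 mice per group, the p-values rest on the spread between these mice. The limit of 3 counts covers counting error only. SE is the standard error of the fitted log2 fold change. Lengths, GC content and positions came from GENCODE release 21 on GRCm38, in which 22945 of 23420 symbols were matched, partly through older symbols. Promoter windows came from RefSeq on the same build, and 36 of the 50 members had one. The fits were tested on simulated data.

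Alternatives were other scalings (RLE, library size alone), other filters, DESeq2 1.42.0, limma 3.58.1 (voom with quality weights), only the groups compared, the replicate number as a block, a spline correction for length and GC content, each run alone and each mouse left out. The lens level as a covariate, the length and GC correction without vehicle-treated mouse 2, and leaving out vehicle-treated mouse 2 with TD139-treated mouse 1 were added after seeing the data. Members and lists were chosen with earlier results of these data known.

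Genes named with values were the members called in a comparison, the 2 members of each class with the highest level per length, members with over 40% of their counts in 1 mouse, those next to the count minimum, and up to 3 called genes per partner list and comparison by size of change. Other genes named were chosen after their values were seen. The values of 1 member are not reported here, although it enters the counts and medians.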

Additional observations from a re-analysis of the deposited data

Results flagged for a closer look

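Col14a1, a fibril-associated collagen, was kept by the count minimum and left out of the tests by the expression filter. It had 36 counts in vehicle-treated mouse 2, above the 7 to 9 counts of the other 8 mice, naïve mice included. The 10 fibroblast markers summed to 174 CPM in the same mouse and to between 11.4 and 80.0 CPM in the others, and their part in the Col14a1 counts was not tested.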

How the results depend on the processing

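Col7a1 and Col20a1 against naïve and Col16a1 against vehicle were called under all 15 alternatives beside the fits that left out a single mouse. Leaving out each mouse in turn gave, for members in vehicle against naïve, 0 to 3 higher and 0 to 3 lower, in TD139 against vehicle 0 to 5 higher and 0 to 9 lower, and in TD139 against naïve 0 to 2 higher. Over all genes these fits called 0.00647% to 7.56% higher and 0% to 5.28% lower, 5.61% to 19.4% higher and 4.91% to 19% lower, and 0% to 9.87% higher. The 9 members lower came without TD139-treated mouse 1, where 19% of all genes were lower. The same fits gave for partner genes 1 to 16 higher in vehicle against naïve, 1 to 5 higher and 5 to 23 lower in TD139 against vehicle, and 0 to 7 higher and 0 to 1 lower in TD139 against naïve.

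In vehicle against naïve, the 0 members called higher became 4 with DESeq2, 4 with limma, 3 with only the groups compared, 2 with the lens covariate, and 1 with RLE, run 1, run 2, or vehicle-treated mouse 2 and TD139-treated mouse 1 left out. Of all genes, DESeq2 called 8.92% higher, limma 12.3%, the fit of only the groups compared 6.26% and the lens covariate 4.7%. RLE, run 1, run 2 and both mice left out gave 5.03%, 4.1%, 4.7% and 7.06%, and the length and GC correction gave 7.78%. The 11 partners higher became 20 with DESeq2, 21 with limma and 18 with the length and GC correction, and the 0 lower became 2 with limma, 1 with the length and GC correction without vehicle-treated mouse 2, and 2 with both mice left out. The fits named for lower partners called 10.2%, 5.23% and 5.18% of all genes lower, in that order. In TD139 against vehicle, the 4 members higher became 2 with library size alone, the lens covariate or both mice left out, 1 with the length and GC correction, with or without the block, and 0 with that correction without vehicle-treated mouse 2. Of all genes, 12.8%, 14.6% and 17% were higher with library size alone, the lens covariate and both mice left out. The correction alone, with the block and without vehicle-treated mouse 2 called 9.44%, 8.97% and 7.03% higher. The 2 members lower became 5 with DESeq2, 8 with limma and 6 with both mice left out, where 18.7%, 22.8% and 16.8% of all genes were lower. The 4 partners higher became 2 with library size alone or run 2, 9 with limma, and 1 with run 1 or any length and GC correction, and the 20 lower became 13 with the block and correction and 11 with the correction without vehicle-treated mouse 2. Run 2, limma and run 1 called 16.5%, 23.4% and 16.1% of all genes higher. The block and correction called 8.84% of all genes lower, and the correction without vehicle-treated mouse 2 called 7.4%. In TD139 against naïve, the 1 member higher became 2 with no filter or run 2, 3 with DESeq2, 4 with limma, and 0 with only the groups compared, the block, run 1, the lens covariate or any length and GC correction, and the 0 lower became 4 with limma. The 3 partners higher became 7 with DESeq2, 10 with limma, 1 with run 1, and 0 with only the groups compared, the block, the lens covariate or any length and GC correction, and the 0 lower became 2 with DESeq2, 4 with limma and 2 with both mice left out. With no filter, run 2 and run 1, 2.18%, 3.43% and 2.26% of all genes were higher in TD139 against naïve, and 3.69% were lower with both mice left out. In this comparison the block, the lens covariate and the length and GC corrections called 0 genes of all tested and the fit of only the groups compared called 1, while limma called 19.9% of all genes higher and 16.2% lower and DESeq2 9.52% and 7.8%. The cause was not tested.

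Signs turned in TD139 against vehicle with the length and GC correction without vehicle-treated mouse 2 for Col11a1 (-0.0324) and Col12a1 (-0.0039). Fras1 turned to -0.0654 with the correction, -0.0659 with the block and correction, and -0.0914 with the correction without that mouse, and Frem1 turned to -0.0896, -0.0989 and -0.132.

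Library size alone in place of TMM moved the share of higher genes among all called from 63.0% to 77.6% in vehicle against naïve, from 51.6% to 39.0% in TD139 against vehicle and from 53.3% to 65.4% in TD139 against naïve.

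Same-numbered mice correlated between -0.259 and 0.282, so the replicate numbers pair nothing. With the number as a block, 0 members were higher and 2 lower in vehicle against naïve, 3 higher and 1 lower in TD139 against vehicle, and 0 higher in TD139 against naïve, beside 3.68% and 2.24%, 16% and 15.4%, and 0% of all genes. Members near 10 counts, such as Lamb3, allow no statement on small changes at this depth.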
